A study of Mus musculus with 45 samples.

Results

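The comparison of lungs from mice bearing a 4T1 tumor with lungs from tumor-free mice used 6 of the 45 samples of the series, 3 4T1 lungs and 3 control lungs. Its members were the 19683 genes with more than 10 counts over these 6 libraries, out of 55367 gene symbols in the deposited table. The series holds 3' end RNA-sequencing of lungs, spleens, subcutaneous polymer scaffolds and primary tumors. Replicates were single mice, 3 per condition according to the methods of the study.

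All mice were female Balb/c and received a scaffold at 7 to 8 weeks of age. In the 4T1 group, 2000000 4T1 cells were placed 2 weeks later in a mammary fat pad, and lungs were taken at day 14. Control mice carried a scaffold but no tumor, and a sham injection was not described for them. 4T1 is a triple-negative mouse mammary carcinoma line that spreads from the fat pad to the lung. The sister lines 67NR and 4T07 came from the same original tumor. 67NR stays at the primary site, and 4T07 leaves it without forming visible metastases. Lungs of mice bearing these lines, 3 each, were used only to place the 4T1 values. Each line is a single cell line in a single mouse strain, which limits it as a model.

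Neutrophils are short-lived white cells made in the bone marrow under the growth factor G-CSF. Their precursors transcribe the genes of primary granules first and those of secondary granules later, while mature cells in blood and tissue transcribe chemokine receptors, the calcium-binding proteins S100A8 and S100A9 and the stefin protease inhibitors. Mammary tumors that secrete G-CSF are known to raise circulating neutrophils, and myeloid cells that gather in the lung before tumor cells have been described as part of the pre-metastatic niche.

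Total counts were 5545315 to 6178621 in control lungs and 6211830 to 7081417 in 4T1 lungs, so 3 counts in a library corresponded to 0.424 to 0.541 CPM (each count divided by its library's total and multiplied by 1000000). Libraries are called by their numbers, 4, 5 and 6 for the control lungs and 37, 38 and 39 for the 4T1 lungs. The lung label was matched by lung markers. Sftpc, a surfactant protein of alveolar type 2 cells, was at 13286, 12106 and 11741 CPM in control lungs and 9152, 7939 and 10265 CPM in 4T1 lungs. Library 39 stood lowest of the 4T1 lungs in neutrophil genes, and library 6 stood apart from the other control lungs in several short transcripts described below.

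With edgeR's quasi-likelihood test, 1007 genes had a Benjamini-Hochberg adjusted p under 0.10 and a change of more than 2-fold, 767 higher and 240 lower in 4T1 lungs. These are the genes called changed below, 5.12% of the genes tested, with 3.90% called higher and 1.22% called lower. At any fold, 8.40% of genes were higher and 5.59% lower at adjusted p under 0.10. An unadjusted p under 0.05 was reached by 4617 of the 19683 genes. The median log2 fold change of all genes tested was -0.01. Among the genes called higher 319 changed by more than 4-fold and 89 by more than 16-fold, against 67 and 31 among those called lower. Against 67NR lungs, 472 of the 767 were also called higher and 40 of the 240 also lower, with 1 of the 240 called higher there. Over all genes 3.63% were called higher and 1.75% lower in 4T1 than in 67NR lungs. Both comparisons use the same 4T1 lungs, so the shared calls are not independent. A gene not called against 67NR lungs may still differ from them. Calls against the same control lungs numbered 849 for 67NR lungs and 5949 for 4T07 lungs. CPM values of the groups did not overlap for 28.5% of all genes. The number on the lower side depended on single libraries. Without control library 5 it held 72 genes and without 4T1 library 38 it held 76, while without control library 6 it held 414. The higher side held 507 to 966 genes when 1 library was left out, with the fewest without library 38.

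**Figure D1:**
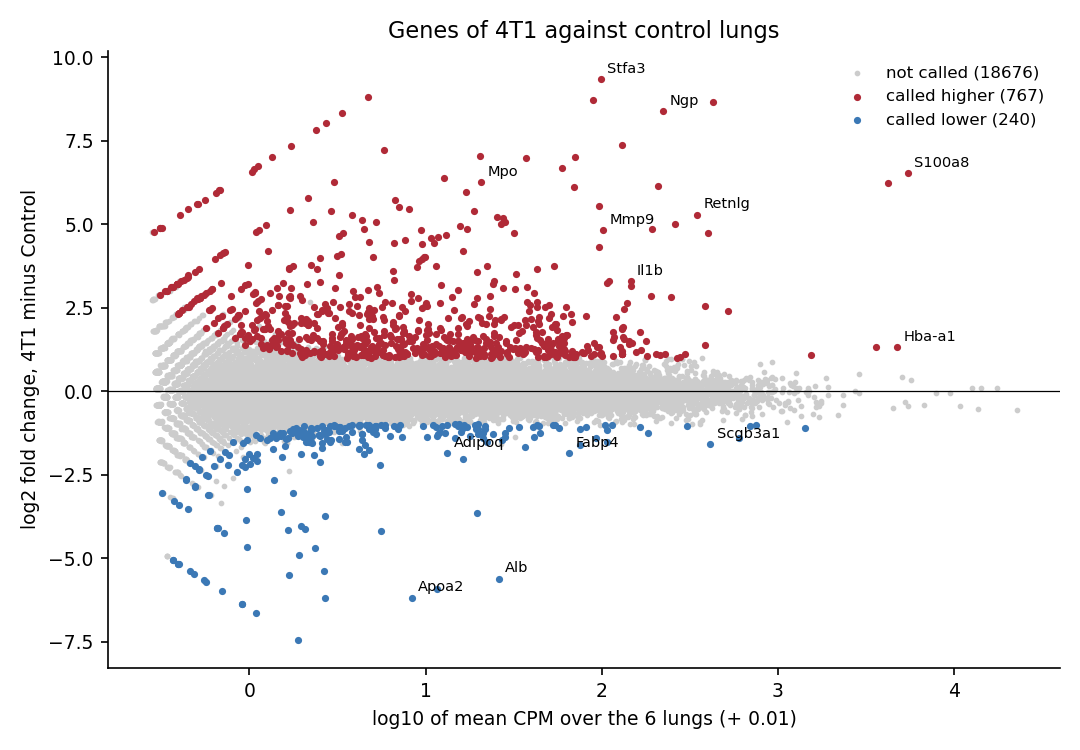
Each point is a gene of the 4T1 and control lungs. The horizontal axis is the log10 of its mean CPM over the 6 lungs, the vertical axis its log2 fold change, and colour marks the 767 genes called higher and the 240 called lower. Among the genes far above 0 are neutrophil genes such as Stfa3, Ngp and S100a8.

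Neutrophil genes were among those that rose most. All 28 tested members of the list of mature neutrophil genes were called higher in 4T1 lungs, where 3.90% of all genes were. The CPM values of the groups did not overlap for any of the 28, nor for 28.5% of all genes. The median log2 fold change of the 28 was 4.91, or 4.78 with Stfa1 set at the lower bound of its fold. Summed over the 28 genes, control lungs had 673, 693 and 596 CPM and 4T1 lungs 27490, 32292 and 13688 CPM. The whole 4T1 group thus lay above the controls, with library 39 well below the other 4T1 lungs. In bulk tissue, more neutrophils and more RNA per neutrophil cannot be told apart. Leaving out any 1 library kept 27 or 28 of the 28 calls, and DESeq2 made 27. Stfa1, Cstdc6 and Stfa3 had 0, 1 and 5 counts over the control lungs. They passed the count filter only through the 4T1 lungs, which tilts the number called toward higher genes.

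Promoter sequences of 4 mature neutrophil genes, those with the highest level in 4T1 lungs among the members that have a RefSeq window, are shown because these genes moved together. They span the 250 bases before the RefSeq start site in GRCm38.p6, written 5' to 3' on the strand of the gene, with matches to the C/EBP core TTGCNNAA on either strand in capitals. C/EBP factors are transcriptional regulators of granulocyte genes. The S100a8 window is chr3:90668821-90669070, plus strand. The S100a9 window is chr3:90695722-90695971, minus strand. The Cstdc5 window is chr16:36367571-36367820, minus strand. The Retnlg window is chr16:48872358-48872607, plus strand.
S100a8: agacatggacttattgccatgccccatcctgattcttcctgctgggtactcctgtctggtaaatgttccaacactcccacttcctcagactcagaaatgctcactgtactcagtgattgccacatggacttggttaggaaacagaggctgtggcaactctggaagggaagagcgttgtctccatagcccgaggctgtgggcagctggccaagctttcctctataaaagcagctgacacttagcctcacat
S100a9: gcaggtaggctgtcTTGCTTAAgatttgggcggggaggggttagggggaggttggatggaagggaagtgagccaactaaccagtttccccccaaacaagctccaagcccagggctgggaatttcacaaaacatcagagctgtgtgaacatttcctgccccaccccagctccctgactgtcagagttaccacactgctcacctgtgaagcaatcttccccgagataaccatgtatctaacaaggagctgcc
Cstdc5: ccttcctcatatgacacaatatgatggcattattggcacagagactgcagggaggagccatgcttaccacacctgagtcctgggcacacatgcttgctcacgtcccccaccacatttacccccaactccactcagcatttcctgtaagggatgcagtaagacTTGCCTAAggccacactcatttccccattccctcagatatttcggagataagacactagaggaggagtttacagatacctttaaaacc
Retnlg: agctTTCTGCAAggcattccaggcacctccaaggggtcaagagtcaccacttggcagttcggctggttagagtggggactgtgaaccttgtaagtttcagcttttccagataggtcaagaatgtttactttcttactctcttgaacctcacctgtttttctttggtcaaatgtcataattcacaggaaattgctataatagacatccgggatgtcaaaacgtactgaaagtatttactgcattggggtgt

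The core began at position -236 in S100a9, -88 in Cstdc5 and -246 in Retnlg, and these letters were not in the S100a8 window. Of the 28 genes, 23 had a RefSeq window, counted here from 250 bases before to 50 bases after the start. The core was in windows of 7 of these 23 genes (Clec4e, Cstdc5, Ly6g, Retnlg, S100a9, Slpi and Stfa1), and in 12.2% of 27025 genes with a window. The E-box CACGTG was in 3 of the 23 genes against 8.09% of all. The AP-1 site TGACTCA was in 2 against 5.95%, and the heat shock core GAANNTTC in 1 against 9.04%. The D-box (TTATGTAA or TTACGTAA) was in 0 against 1.23%. Both strands were searched for each motif. These matches describe the letters of the windows and nothing about binding.

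S100a8 and S100a9 encode the subunits of calprotectin, an abundant cytosolic protein of neutrophils and monocytes. S100a8 was at 124, 127 and 103 CPM in control lungs and 12788, 13711 and 6044 CPM in 4T1 lungs, a log2 fold change of 6.54 ± 0.31 (SE, edgeR adjusted p = 2.2e-10). S100a9 was at 126, 109 and 97.6 CPM against 8977, 11201 and 4729 CPM. Every 4T1 lung lay above every control lung for both genes, and library 39 was the lowest 4T1 lung in each.

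The stefins and their relatives on chromosome 16 are intracellular inhibitors of cysteine proteases. Among genes at a mean of 5 CPM or more over the 6 lungs, Stfa3, Stfa2 and Cstdc5 had the 3 largest positive folds. Stfa3 was at 0.174, 0.361 and 0.324 CPM in control lungs and at 194, 324 and 76.0 CPM in 4T1 lungs. It had 5 counts over the 3 control libraries and 4007 over the 4T1 libraries, a ratio of 701 with an exact 95% interval of 300.1 to 2160 for counting error. Cstdc5 was at 2.96, 1.80 and 1.62 CPM against 858, 1350 and 357 CPM, with a log2 fold change of 8.66 ± 0.46 (SE). The groups were far apart for both genes. Stfa2 (log2 fold change 8.73), Stfa2l1 (6.66) and Cstdc4 (6.09) were called higher as well. Stfa1 had no count in the control lungs and was at least 2.62-fold higher in 4T1 lungs, taking 3 counts per control library. These genes are close copies of each other, and how reads that match several of them were counted is not given in the sources used here, so the level of each is uncertain.

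Receptors of the mature neutrophil rose with them. Cxcr2, the receptor for the neutrophil-attracting CXC chemokines, was at 4.18, 3.43 and 4.69 CPM in control lungs and 193, 268 and 109 CPM in 4T1 lungs (log2 fold change 5.53 ± 0.31, SE). Csf3r, the G-CSF receptor, was at 1.92, 2.88 and 2.10 CPM against 60.5, 87.4 and 35.2 CPM. Il1r2, a decoy receptor for interleukin-1, had a log2 fold change of 3.90 and Trem1, an activating receptor of myeloid cells, one of 2.77. Ly6g, the surface antigen used to sort mouse neutrophils, was at 2.27, 1.26 and 1.13 CPM against 304, 375 and 93.4 CPM. For each of these surface proteins the lowest 4T1 lung was library 39 and still lay above all controls. The secreted proteins Retnlg, a resistin-like peptide, Mmp9, a gelatinase, and Il1b, interleukin-1 beta, had log2 fold changes of 5.28, 4.82 and 3.29. Il1b was nearly even across the 4T1 lungs, at 275, 303 and 214 CPM against 19.4, 33.4 and 28.8 CPM in the controls. Of the other genes with large folds, Asprv1 is a retroviral-like protease, Olfm4 marks a subset of neutrophils, and Prok2 is a secreted peptide of myeloid cells, with log2 fold changes of 7.05, 6.37 and 6.98. Ceacam10 had 1 count in the controls and 230 in 4T1 lungs, a ratio of 201 (35.7 to 7979).

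Granule genes rose too, though not all of them. Of 16 tested members of the list of primary and secondary granule genes, 13 were called higher, where 3.90% of all genes were, and none lower. The median log2 fold change of the list was 4.97. Elane, Ms4a3, Cebpe, Ctsg and Fcnb had 2, 3, 4, 4 and 4 counts over the control lungs. They passed the count filter only through the 4T1 lungs, which tilts the number called toward higher genes. The members that were not called were Chil3, Anxa1 and Hp. Other lung cells also transcribe them, and the part of such cells in their levels was not tested. Summed over the list, control lungs had 989, 1149 and 993 CPM and 4T1 lungs 2987, 3449 and 1716 CPM. Mpo, the myeloperoxidase of primary granules, was at 0.872, 0.541 and 0.162 CPM in control lungs and 48.8, 46.0 and 27.3 CPM in 4T1 lungs (log2 fold change 6.26 ± 0.38, SE). Elane, neutrophil elastase, had 2 counts in the controls and 112 in 4T1 lungs, a ratio of 49.0 (13.2 to 409). Ngp and Camp, proteins of secondary granules, had log2 fold changes of 8.39 and 7.00, and Ltf, lactoferrin, one of 4.31. None of these genes overlapped between the groups.

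**Figure D2:**
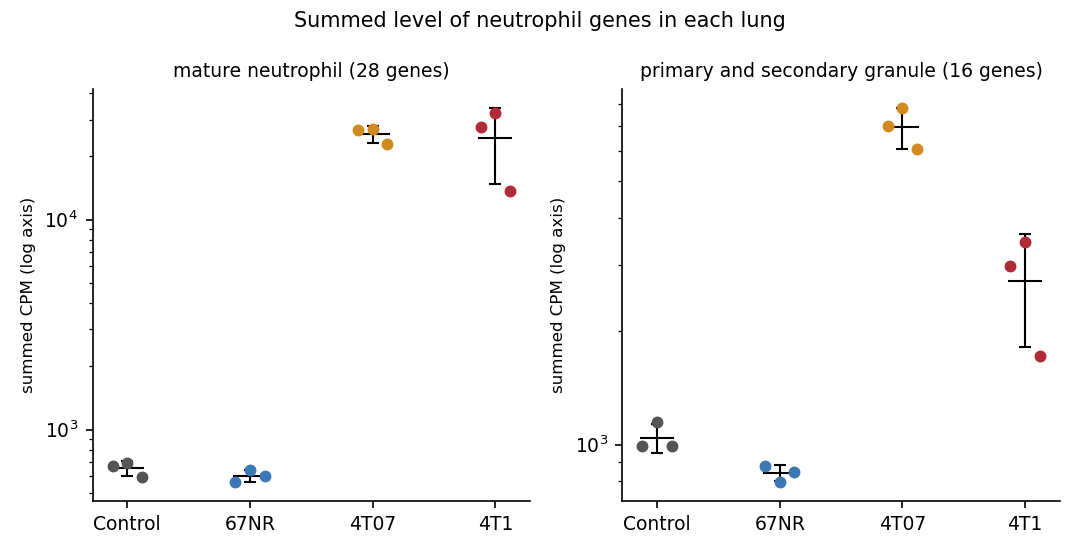
Points are single lungs, with the group mean and SD in black, on a log axis of CPM summed over the 28 mature neutrophil genes (left) and the 16 granule genes (right). The 4T1 lungs reach 13688 to 32292 CPM on the left against 596 to 693 CPM in control lungs, while on the right they lie below the 4T07 lungs.

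The 67NR and 4T07 lungs place these values, with the same 4T1 lungs entering each comparison. Against 67NR lungs, in which 3.63% of all genes were higher and 1.75% lower in 4T1, all 28 mature neutrophil genes and 14 of 16 granule genes were higher in 4T1 lungs. The 67NR lungs had 564 to 641 CPM summed over the mature list. The 4T07 lungs had 22853 to 26960 CPM, inside the range of the 4T1 lungs.

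Between 4T1 and 4T07 lungs, 12.8% of all genes were higher and 11.3% lower in 4T1, and the neutrophil lists divided. Of the mature genes 13 were higher and 1 lower in 4T1 lungs, and of the granule genes none was higher and 11 were lower. Wfdc17, a secreted inhibitor-like protein, was at 584, 620 and 319 CPM in 4T1 lungs and 76.8, 109 and 108 CPM in 4T07 lungs, a log2 difference of 2.32 ± 0.24 (SE, edgeR adjusted p = 3.9e-07). Il1b differed by 2.06 and Cxcr2 by 1.42 in the same direction. Elane was at 9.82, 5.37 and 1.95 CPM in 4T1 lungs and 235, 287 and 127 CPM in 4T07 lungs, a log2 difference of -5.31 ± 0.36 (SE). Mpo differed by -4.31 and Cebpe, a transcription factor of granule formation, by -3.43. S100a8 differed by -0.13 (edgeR adjusted p = 0.71) and Mmp9 by 0.43, neither called. Mmp8, a collagenase listed with the secondary granule genes, had a log2 difference of 0.81 and Hp one of 0.66, both below the 2-fold limit.

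**Figure D3:**
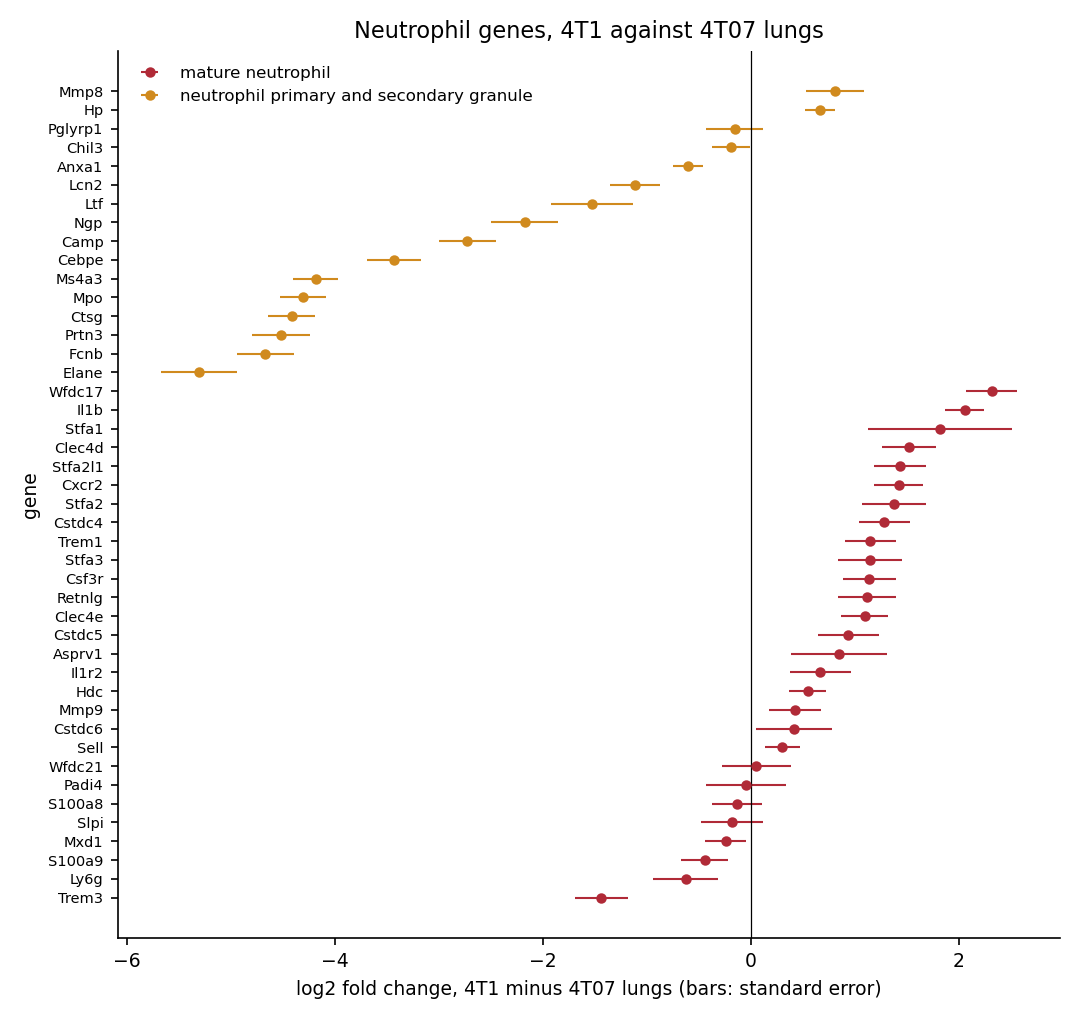
Each point is the log2 fold change of a neutrophil gene between 4T1 and 4T07 lungs, with its standard error. Primary and secondary granule genes (orange) extend to -5.31 at Elane, and 13 of the 28 mature genes (red) were called higher in 4T1 lungs.

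Fewer genes of other white cells were called. Of 12 monocyte genes, 4 were called higher, where 3.90% of all genes were, with a median log2 fold change of 0.36. Ccr2, the receptor that brings monocytes out of the marrow, was at 90.1, 74.8 and 84.2 CPM in control lungs and 144, 240 and 147 CPM in 4T1 lungs (log2 fold change 1.10). Fcgr4, an activating Fc receptor shared with neutrophils, had 1.91, Ly6c2 1.44 and F13a1, a coagulation factor of monocytes, 1.31. Without library 38 only 2 of the 4 calls were left. Ccr1, a chemokine receptor of neutrophils and monocytes, was at 5.75, 9.38 and 5.67 CPM against 58.1, 76.8 and 37.6 CPM.

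Of 14 genes of mast cells, basophils and eosinophils 6 were called higher, at low levels, where 3.90% of all genes were. Their median log2 fold change over the 14 was 1.03. With 1 library left out 4 to 6 were called, and DESeq2 called 5. Ear6, Epx, Fcer1a and Mcpt8 had 1, 2, 4 and 6 counts over the control lungs. They passed the count filter only through the 4T1 lungs, which tilts the number called toward higher genes. The called genes were Ccr3, Ear6, Epx, Fcer1a, Mcpt8 and Prg2, while the mast cell proteases Mcpt4, Tpsb2 and Cma1 were at 0.87, -0.27 and -0.70 and not called. Prg2, the eosinophil major basic protein, was at 0.872, 0.361 and 0.324 CPM in control lungs and 46.2, 19.6 and 34.0 CPM in 4T1 lungs. Mcpt8, a basophil protease, had 6 counts in the controls and 124 in 4T1 lungs, a ratio of 18.1 (8.07 to 50.2). Epx, eosinophil peroxidase, had 2 and 88 counts, a ratio of 38.5 (10.3 to 322.7). The groups did not overlap for these 3 genes. Both Prg2 and Epx are also transcribed by marrow precursors of these cells.

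B cell genes lay lower by less than 2-fold, with a median of -0.62. None of 14 was called by edgeR or DESeq2, while 9 were lower at unadjusted p under 0.05 and 8 at adjusted p under 0.10, where 5.59% of all genes were lower. Ms4a1, which encodes CD20, was at 56.1, 49.2 and 43.7 CPM in control lungs and 27.4, 26.0 and 31.0 CPM in 4T1 lungs (log2 fold change -0.81 ± 0.15, SE, edgeR adjusted p = 0.0023). Bank1, a B cell adaptor, and Pax5, the B cell identity factor, changed by -0.75 and -0.84. Of 11 plasma cell genes (median -0.28) both calls were lower, Jchain, the joining chain of secreted IgA and IgM, and Igha, the IgA heavy chain. Igha was at 21.6, 26.7 and 21.7 CPM against 14.5, 8.05 and 10.2 CPM, a log2 fold change of -1.09, and its call was lost without library 38 or 5. Of 16 T cell genes (median -0.06) only Ctla4 was called, at 15 counts in 4T1 lungs and 2 in controls, and the call was lost without any of 5 of the 6 libraries. In dendritic, natural killer, interstitial macrophage and MHC class II lists edgeR called 0 of 12, 10, 11 and 9 genes. At unadjusted p under 0.05, which 4617 of all 19683 genes passed, these lists had 4, 2, 3 and 4 genes. Of these 3, 1, 0 and 4 were lower and the others higher. At adjusted p under 0.10 at any fold 1, 1, 0 and 3 were lower and 1, 1, 2 and 0 higher. DESeq2 called 1 dendritic cell gene, lower, and none in the other lists.

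Genes of alveolar macrophages, the resident phagocytes of the airspace that recycle surfactant lipid, were lower in part. Of 14 tested, 5 were called lower, where 1.22% of all genes were, with a median log2 fold change of -0.74. At adjusted p under 0.10 at any fold 9 were lower, where 5.59% of all genes were. Lower calls against the same controls were also made in 67NR lungs (5, median -0.87) and 4T07 lungs (9, with 1 higher, median -1.4). The median of 4T1 minus 67NR lungs was 0.008, with 1 gene called lower in 4T1 and none higher. Ear2, an eosinophil-associated ribonuclease that alveolar macrophages transcribe, was at 59.1, 77.9 and 31.7 CPM in control lungs and 16.1, 10.0 and 26.5 CPM in 4T1 lungs (log2 fold change -1.68 ± 0.30, SE, edgeR adjusted p = 0.00134). Fabp1, a fatty acid carrier, was at 38.4, 57.9 and 22.7 CPM against 15.5, 11.0 and 16.6 CPM. Neither gene overlapped between the groups, and control library 6 was nearest to the 4T1 lungs in each. Pparg, a lipid-sensing factor needed for these cells, changed by -1.03, while Siglecf and Marco, surface markers of the same cells, were at -0.30 and -0.53 and not called. The number called was 3 to 7 as single libraries were left out, lowest without libraries 38 or 5. Of the 5 called, Ear2, Fabp1 and Fabp4 have transcripts of at most 800 nt, a class frequent among all lower genes, and the part of transcript length in these values was not tested.

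Of all lists, that of adipocyte and lipid genes had the most members called lower, 7 of 15 tested, with a median of -1.04. Among all genes 1.22% were called lower. Fabp4, a fatty acid carrier of adipocytes, endothelium and macrophages, was at 56.3, 166 and 85.3 CPM in control lungs and 29.8, 31.2 and 22.5 CPM in 4T1 lungs (log2 fold change -1.87 ± 0.32, SE, edgeR adjusted p = 0.000877). Adipoq, the adipocyte hormone adiponectin, was at 9.59, 34.6 and 18.5 CPM against 5.47, 6.78 and 4.65 CPM. Both were highest in control library 5 and varied several fold among controls. Cfd, the adipocyte protease adipsin, changed by -1.41, Plin1, a lipid droplet coat protein, by -1.46 and Car3, a carbonic anhydrase abundant in fat, by -1.61. Scd1, a fatty acid desaturase, was more even, at 1035, 937 and 840 CPM against 442, 369 and 558 CPM (log2 fold change -1.03). Without control library 5, 3 of the 7 calls were left. Of the 7, Fabp4 has a transcript of at most 800 nt. How much fat came with each lung was not tested.

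**Figure D4:**
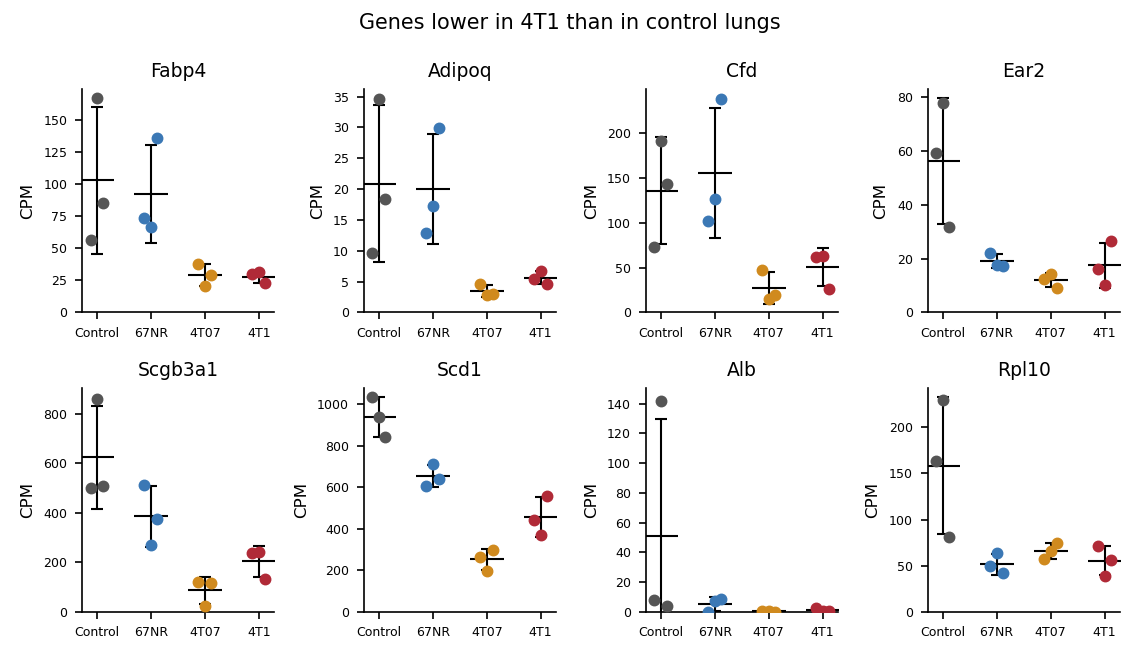
CPM of 8 genes called lower in 4T1 than in control lungs, on linear axes from 0, with points for single lungs and the mean and SD in black. Alb is high in a single control lung (142 CPM), Fabp4 and Adipoq vary widely among controls, and Scd1 separates the groups with little spread.

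In the epithelium the calls were in airway genes and all were lower. None of 10 alveolar type 1 genes and none of 13 alveolar type 2 genes was called by edgeR or DESeq2, with 0 and 5 at unadjusted p under 0.05 and medians of -0.01 and -0.39. At adjusted p under 0.10 at any fold 3 of the type 2 genes were lower, where 5.59% of all genes were. Sftpc had a log2 fold change of -0.43 ± 0.21 (SE) and Ager, a receptor of alveolar type 1 cells, one of 0.39. In the airways 3 of 9 club and goblet cell genes were called lower (median -0.41), where 1.22% of all genes were. Scgb3a1, a secretoglobin, was at 499, 861 and 509 CPM in control lungs and 236, 242 and 133 CPM in 4T1 lungs (log2 fold change -1.60 ± 0.39, SE). Scgb3a2 changed by -1.11 (1827, 2277 and 1777 CPM against 876, 824 and 1016 CPM), and Reg3g, an antimicrobial lectin, by -1.42 with overlapping groups. DESeq2 called 1 of the 3, as did edgeR without library 37 or 5. Of 10 ciliated cell genes (median -0.39), Fam183b and Tmem212 were called lower, and without control library 5 neither was. All 5 airway genes called lower have transcripts of at most 800 nt.

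Few genes of structural cells were called. In 30 extracellular matrix genes edgeR and DESeq2 called none, with a median of -0.22. At unadjusted p under 0.05, 9 were lower and 2 higher. At adjusted p under 0.10 at any fold 6 were lower and 1 higher, where 5.59% and 8.40% of all genes were. Of 23 endothelial genes (median 0.07) Selp alone was called. It encodes P-selectin, which captures rolling neutrophils and is also stored in platelets, and it was at 1.74, 3.97 and 2.75 CPM in control lungs and 16.6, 25.1 and 10.5 CPM in 4T1 lungs. Of 21 genes of fibroblasts, smooth muscle and pericytes (median -0.20) 2 were called higher, Pi16 and Cnn1, and 3 were lower at adjusted p under 0.10 below 2-fold. Cnn1, a smooth muscle calponin, lost its call without library 38, 4 or 5. Pi16, a marker of adventitial fibroblasts, rose from 15.5, 17.7 and 20.1 CPM to 68.6, 101 and 40.6 CPM, a log2 fold change of 2.00. Library 39 was the lowest 4T1 lung for Selp and Pi16 as it was for neutrophil genes.

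Some genes of red cells and platelets were higher. Of 11 erythroid genes 6 were called higher, where 3.90% of all genes were, with a median of 1.31. Hba-a1, an alpha globin, was at 2623, 2265 and 3294 CPM in control lungs and 8578, 7387 and 4313 CPM in 4T1 lungs (log2 fold change 1.33), while the beta globin Hbb-bs was at 16113, 11912 and 8683 CPM against 14822, 11416 and 13010 CPM and not called. Hba-a1 and Hba-a2 are near-identical, so reads may be shared between them. Slc4a1, the red cell anion exchanger, changed by 2.70 and Klf1, an erythroid transcription factor, by 2.17. Without library 37 only 3 of the 6 were called. Of 11 platelet and megakaryocyte genes (median 0.96) 4 were called, among them Treml1, at 1.05, 1.08 and 1.13 CPM against 10.1, 13.8 and 4.65 CPM. All 11 erythroid genes were called higher than the same controls in 4T07 lungs (median 2.98) and 3 in 67NR lungs (0.73). For the platelet list these were 11 (4.12) and 2 (0.50). Directly against 67NR lungs, 1 erythroid and 3 platelet genes were higher in 4T1. Blood left in the vessels of each lung was not measured, and its part in these values was not tested.

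**Figure D5:**
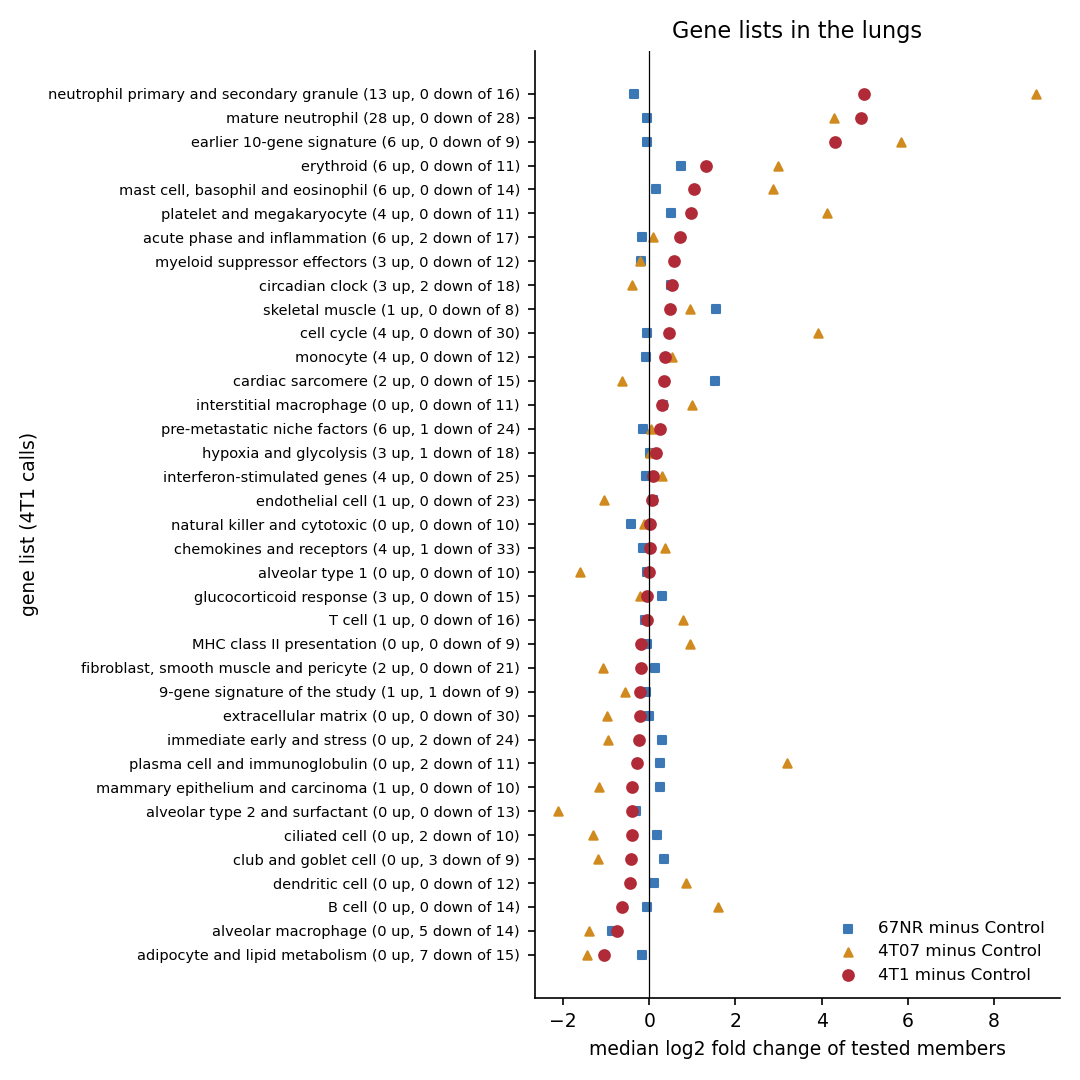
Median log2 fold change of the tested members of each list with at least 8 of them, against control lungs, for 4T1 (red circles), 4T07 (orange triangles) and 67NR (blue squares); all share the 3 control lungs. The count of members called in 4T1 lungs stands beside each list, and in 4T1 the neutrophil lists reach 4.97 and 4.91 while the lists of structural cells lie near 0.

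Some cell cycle genes were called higher in 4T1 lungs. Of 30 tested, 4 were called higher (Birc5, Ccna2, Plk1 and Rrm2), where 3.90% of all genes were, with a median log2 fold change of 0.45. At any fold 7 were higher at adjusted p under 0.10, where 8.40% of all genes were. At unadjusted p under 0.05, 11 were higher, and none was lower at either limit. Birc5, survivin, was at 29.3, 22.7 and 26.9 CPM in control lungs, 76.5, 59.2 and 48.0 CPM in 4T1 lungs and 882, 699 and 440 CPM in 4T07 lungs. Compared directly, 29 of the 30 were lower in 4T1 than in 4T07 lungs.

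Inflammatory and niche genes were mixed. Beside the counts below, 3.90% of all genes were called higher and 1.22% lower. Of 17 acute phase genes 6 were higher and 2 lower, with a median of 0.71. Lrg1, a secreted glycoprotein of neutrophils and endothelium, was at 29.1, 22.7 and 38.5 CPM in control lungs and 285, 400 and 104 CPM in 4T1 lungs, and Saa3, a serum amyloid made in tissue, was at 12.6, 16.8 and 5.99 CPM against 72.3, 114 and 34.2 CPM. Socs3, a feedback inhibitor of cytokine signalling, rose by 2.00 on the log2 scale. Of 24 factors linked to the pre-metastatic niche (median 0.25) 6 were higher and 1 lower, and of these S100a8, S100a9, Mmp9, Lcn2 and Prok2 are also neutrophil products. The matrix members Lox, Fn1 and Postn were at 0.46, -0.20 and -0.41 and not called. Of 12 myeloid suppressor effectors (median 0.58) Ncf1, Cd84 and Prok2 were higher, while Arg1 (0.17), Nos2 (0.81) and Cd274 (-0.06) were not called. Of 33 chemokines and receptors (median 0.01) 4 were higher, 3 of them receptors and the other Ccl8, a ligand of monocytes and eosinophils, at 3.83, 5.23 and 3.40 CPM against 16.1, 7.48 and 9.14 CPM. The neutrophil attractants Cxcl1 and Cxcl5 were at -0.69 and 0.35, not called, and Cxcl2 was lower at levels of 1.22, 4.15 and 3.24 CPM against 1.13, 0.989 and 1.50 CPM, with overlapping groups, a call lost with DESeq2 and without library 37, 38, 5 or 6. Of 25 interferon-stimulated genes (median 0.09) 4 were higher. Ifitm1, a membrane protein abundant in neutrophils, was at 46.7, 73.6 and 64.6 CPM against 487, 596 and 213 CPM, and Oas3 rose by 3.73 on the log2 scale, whereas Isg15 and Ifit3 were at -0.16 and -0.03.

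Clock genes changed in both directions. Of 18 tested (median 0.53), Per1, Tef and Nfil3 were called higher and Arntl and Npas2 lower, where 3.90% and 1.22% of all genes were. At any fold 8 were higher and 3 lower at adjusted p under 0.10, where 8.40% and 5.59% of all genes were. Arntl, the activator arm of the clock, was at 19.7, 15.5 and 15.2 CPM in control lungs and 7.41, 7.48 and 9.14 CPM in 4T1 lungs (log2 fold change -1.06 ± 0.21, SE, edgeR adjusted p = 0.00278). Per1, a repressor, was at 5.23, 5.77 and 7.12 CPM against 11.8, 13.4 and 14.2 CPM, and Tef, an output factor, at 142, 159 and 235 CPM against 322, 391 and 348 CPM. Neither overlapped. Nfil3, also a myeloid gene, changed by 2.28. Without control library 6, 8 clock genes were called higher, and without control library 4 none was called lower. The Npas2 call was lost without library 37, 38, 4 or 5 (edgeR adjusted p = 0.184, 0.131, 0.368 and 0.126). The 67NR lungs had a median of 0.51 against the same controls, with 3 clock genes called higher and none lower. For 4T07 lungs the median was -0.40, with 1 called higher and 3 lower. Between 4T1 and 67NR lungs it was -0.08, with 1 gene higher and 1 lower in 4T1. The hour of tissue collection is not given in the sources used here, so tumor and hour cannot be told apart. In the glucocorticoid list Per1, Zbtb16 and Lcn2 were higher of 15, and in the immediate early list Egr1 and Egr2 were lower of 24, with Egr1 lost under DESeq2 and without any library but 4, and Egr2 at 9.94, 10.1 and 8.09 CPM against 4.67, 4.09 and 4.35 CPM. In the hypoxia and glycolysis list Slc2a1, Egln3 and Eno1 were higher and Pgk1 lower of 18. Eno1 and Pgk1 have close copies in the genome and were at under 15 CPM, so their levels are uncertain.

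Several genes with the largest negative folds depended on control library 5. Alb, serum albumin, was at 7.84, 142 and 3.88 CPM in control lungs and 2.74, 0.141 and 0.300 CPM in 4T1 lungs. Apoa2, an apolipoprotein of liver, was at 0.523, 47.8 and 0.971 CPM against 0.322, 0 and 0.300 CPM, and Fgg, a fibrinogen chain, at 0.872, 12.6 and 0.162 CPM. Only library 5 was high in each. Without it the edgeR adjusted p was 0.156 for Alb, 0.354 for Apoa2 and 0.513 for Fgg.

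Short transcripts were frequent among the lower genes in general. Rpl10, a ribosomal protein, was at 164, 230 and 81.1 CPM in control lungs and 71.0, 39.1 and 55.8 CPM in 4T1 lungs. Ndufb6, a subunit of respiratory complex I, was at 37.1, 47.8 and 14.7 CPM against 14.6, 7.48 and 12.4 CPM, and Rpl22l1 changed by -2.05. Control library 6 was the lowest control in each. Among genes at 5 CPM or more with a GENCODE vM1 coding transcript, the median transcript length was 837 nt for the 72 called lower, 2192 nt for the 348 called higher and 2379 nt for all 9703. Transcripts of at most 800 nt made up 45.8%, 11.8% and 8.40% of these. Summed over 74 ribosomal protein genes with transcripts of at most 1000 nt, a set chosen after the values were seen, control lungs had 37719, 39481 and 25590 CPM and 4T1 lungs 25680, 20687 and 26337 CPM. The 67NR lungs had 19384, 21452 and 18993 CPM and the 4T07 lungs 31840, 31886 and 27534 CPM, so the sum lay below all 3 controls in 67NR lungs and inside the control range in 4T07 lungs. The mitochondrial share of counts was 8.09%, 6.48% and 7.89% in control lungs and 5.40%, 5.29% and 5.83% in 4T1 lungs. The part of RNA quality or fragment selection in the lower short transcripts was not tested.

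Of the 9-gene signature that the study chose on its scaffolds, Ifitm1 was called higher and Spon2, a secreted matrix protein, lower (18.8, 16.8 and 14.4 CPM against 8.21, 5.93 and 6.30 CPM). The remaining 7 (Dhx9, Dusp12, Fhl1, Ndufs1, Pja2, Slc1a3 and Soga1) were not called, and Dhx9 lay farthest from 0 among them at -0.67. At adjusted p under 0.10 at any fold 4 of the 9 were lower and 1 higher, where 5.59% and 8.40% of all genes were. CPM values did not overlap for 6 of the 9, against 28.5% of all genes. The study applied the 9 genes together to lungs and reported that they set the 4T1 group apart. Joint use was not examined here. The median of the 9 was -0.21. In an earlier 10-gene signature, also a published list, 6 of 9 tested genes were higher (Camp, Elane, Ltf, Pglyrp1, S100a8 and S100a9) with a median of 4.31, and all 6 are neutrophil genes of the lists above. Ccr7, Ccl22 and Chil3 were not called. The lists were chosen on samples of this study or of the same tumor model, so their counts are not independent evidence of direction.

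Transcripts of the tumor cells were looked for in the lungs. Ibsp, a bone matrix protein, was the only gene at 50 CPM or more in each 4T1 primary tumor and without a count in 67NR lungs. It had 0, 0 and 1 counts in control lungs and 0, 1 and 2 counts in 4T1 lungs. With at most 1 count allowed in 67NR lungs, a limit chosen after the values were seen, Gpa33 and Tmprss11e were added, and the 3 genes summed to 2, 1 and 1 counts in control lungs and 2, 1 and 3 counts in 4T1 lungs. These counts were at or under 3 in each library, so for these 3 genes a difference from control lungs was not detectable at this depth. Other tumor transcripts were not examined.

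The lung was set beside the spleen of the same groups by an interaction term over 24 libraries. Lungs and spleens were taken from mice of the same groups, the labels do not tie an organ to a mouse, and the fit treated all libraries as independent, so where a mouse gave both organs the p-values do not take that into account. At adjusted p under 0.10, 20.1% of 24645 genes differed between the tissues, 10.5% with a more positive effect in lung and 9.59% with a more negative one. The median over all genes of the lung effect minus the spleen effect was 0.16. Of the 28 mature genes 10 had a more positive effect in lung and 2, Trem1 and Hdc, in spleen, with a median difference of 1.24. Of the 16 granule genes Ngp and Mmp8 had a more positive effect in lung, while Ltf, Lcn2, Chil3, Hp and Anxa1 had a more positive one in spleen, with a median difference of -0.91. S100a8 rose by 6.50 in lung and 4.56 in spleen on the log2 scale in this fit, a difference of 1.94 ± 0.42 (SE). Anxa1, an annexin of many cell types, differed by -3.08 ± 0.43 (SE, edgeR adjusted p = 2.94e-05). The members of these lists were known to be high in 4T1 lungs, and the same lung values enter the difference, so the counts are a description.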

How the data were processed

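RNA from frozen lungs and spleens was made into QuantSeq 3' FWD libraries with molecular identifiers. The deposited values were raw counts of reads per gene symbol, which the authors made with Trim Galore 0.5.0, STAR 2.6.0 and featureCounts per the labels. The genome build, annotation, strand setting and collapsing of identifiers are not given in the sources used here. The 120 rows that repeat a symbol were summed, and 1 column of the table was not used. Count totals of the 12 lungs were 4609634 to 7081417.

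Genes with more than 10 counts over the 6 lungs were fitted with edgeR 4.0.16 in R 4.3.3 (TMM scaling, quasi-likelihood test, 4 group means over the 12 lungs). The interaction with spleen was fitted over lungs and spleens. Alternatives were DESeq2 1.42.0, DESeq2 size factors, other count filters, only the 6 lungs, and each library left out. CPM are counts scaled to a library total of 1000000 and served for display. A standard error is the log2 fold change divided by the square root of F. Named genes were the 12 higher and 12 lower with the largest fold among called genes at 5 CPM or more without overlap, up to 4 called members of each list (for a list with none, 3 of the highest level), and the signature genes. Members and lists were chosen with earlier results of these data known. List members beyond that rule were named after their values were seen. In simulated counts for 4T1 against control lungs, 200 of 19683 genes were changed 4-fold, drawn only from genes with a mean of at least 10 counts per library. With the spread of the fitted model, 98.5% of these were recovered with 14 false calls. For the interaction over 24645 genes, with changed genes drawn likewise, it was 87.5% with 10. Recovery of genes with fewer counts was not examined. Intervals of ratios cover counting error only. Promoter windows are from RefSeq on GRCm38.p6 and transcript lengths from GENCODE vM1, matched by symbol. The p-values rest on the spread between mice within groups, 3 mice per group. That spread was estimated over all groups of a fit and drawn toward that of other genes.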

Additional observations from a re-analysis of the deposited data

Results flagged for a closer look

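Of the 24 genes with the largest folds in 4T1 lungs at 5 CPM or more and without overlap, 9 had a log2 fold change that differed between lung and spleen by edgeR's interaction term at adjusted p under 0.10. Among all 24645 genes tested for this difference, 20.1% did so, and the median difference was 0.16. The 24 genes were chosen by the lung values that also enter the difference, which favours a larger effect in lung, so these are descriptions. The differences below are lung minus spleen, with 3 mice per group and tissue.

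For 6 of the 12 raised genes the effect was larger in lung. The difference was 2.53 ± 0.68 (SE) for Ngp (8.35 in lung and 5.82 in spleen), 2.41 ± 0.68 for Ly6g and 1.94 ± 0.42 for S100a8 (edgeR adjusted p = 0.00235). It was 2.12 for Stfa2l1, 3.30 for Asprv1 and 3.48 for Ceacam10, the last from 1 count in the control lungs. The other 6 raised genes did not pass this test, which does not show that they changed alike.

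Among the lowered genes, Ear2 differed by -2.54 ± 0.59 (-1.71 in lung and 0.83 in spleen). Ndufb6 differed by -3.24 and Rpl10 by -2.03, both short transcripts in which control lung library 6 lay nearest to the 4T1 lungs.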

How the results depend on the processing

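The count of genes called in 4T1 against control lungs was 1007, with 819 by DESeq2, 1002 with DESeq2 size factors, 1144 without a count filter and 1031 with only the 6 lungs fitted. Requiring at least 10 counts in every sample moved it to 507 (415 higher, 92 lower), and the counts against 67NR and 4T07 lungs to 576 and 2888, since fewer genes were tested. With 1 library left out, the ranges were 583 to 1329 for all calls, 507 to 966 for genes called higher and 72 to 414 for genes called lower. They were 672 to 1194 against 67NR lungs, 3982 to 5382 against 4T07 lungs and 3714 to 4673 for the lung and spleen difference. With only the 6 lungs fitted, an alternative chosen after the data were seen, the ranges were 594 to 1429, 513 to 996 and 77 to 461 (lower genes 146 without library 37, 81 without 38 and 140 without 4). The fewest lower genes came without control library 5 (72) and without 4T1 library 38 (76), also 153 without library 4 and 414 without library 6; the cause was not tested. Of 95 named genes called, 74 stayed called without library 5 and 87 with DESeq2 (6 lost, and those without a DESeq2 adjusted p not counted), and none changed direction under any alternative run. No paired analysis was possible because library numbers are unique to each group. Depth limits genes under about 0.5 CPM.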

Other observations

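Marker genes of neighbouring tissues were also measured in the lungs. Of 15 cardiac sarcomere genes 2 were called higher, Mybpc3 (1.22, 1.08 and 2.43 CPM in control lungs against 12.7, 12.6 and 5.25 CPM in 4T1 lungs) and Tcap, whose call was lost with DESeq2 and without library 37, 38, 4 or 5. The summed level of the list was 156 to 193 CPM in control lungs and 171 to 234 CPM in 4T1 lungs. Of 8 skeletal muscle genes Myh4 was called, at 11.4, 1.70 and 5.40 CPM in 4T1 lungs, and it was not called without library 37, 4 or 5. Of 6 thymus genes Rag1 and Prss16 were called at under 3 CPM, and neither was without library 38, 5 or 6. The only gene tested of the thyroid and esophagus list, Tg, was at a log2 fold change of 0.21 and not called by edgeR or DESeq2, nor at unadjusted p under 0.05. Of 10 mammary epithelial genes the called one was Ltf, which is also a granule gene.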
